A study of Mus musculus with 12 samples.

Results

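The subunits of oxidative phosphorylation were followed at the RNA level in cultured heart muscle cells (ventricular myocytes) of adult mice. A gene was counted as a subunit if its symbol began with Nduf (Ndufaf assembly factors aside), Uqcr, Cox4, Cox5, Cox6, Cox7, Cox8 or Atp5, or if it was Sdha, Sdhb, Sdhc, Sdhd or Cyc1. Symbols ending in -ps were left out. This gave 79 of the 24704 gene symbols measured, of which 36 belong to complex I, 4 to complex II, 8 to complex III, 17 to complex IV and 14 to complex V. By this rule on symbols, Atp5l-ps1, annotated as a pseudogene, was kept, while Atp5c1-ps, Cox5b-ps and Ndufs5-ps were not. Ndufa4 is counted with complex I by its symbol, although the protein is now placed in complex IV, and Ndufa4l2 and Cox7a2l are relatives rather than fixed structural subunits. Atp5g1, Atp5g2 and the subunits encoded by mitochondrial DNA were not analysed here.

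The cells came from 6 adult mice, 3 wild type (WT) and 3 double knockouts (DKO) deficient for CaMKIIδ and CaMKIIγ, forms of a calcium-activated kinase of heart muscle. Myocytes of each mouse were isolated by enzymatic perfusion, and 1 culture was left untreated (labelled Ctrl) and another exposed for 24 h to 100 nM Iso, which activates beta-adrenergic receptors and so drives the heart to beat faster and harder. The 12 Affymetrix arrays thus form 4 groups of 3: untreated WT, Iso-treated WT, untreated DKO and Iso-treated DKO. The study asked whether gene expression changes accompany a histone phosphorylation mark that Iso induces, and what loss of the kinase does to it. All groups share enzymatic isolation and culture, and neither the strain nor the promoter or Cre behind the knockouts is given in the sources used here.

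The respiratory chain passes electrons from NADH (complex I) and succinate (complex II) through complex III to oxygen at complex IV, and the proton gradient this builds drives ATP synthesis at complex V. Cardiac myocytes rely on it for nearly all of their ATP and are packed with mitochondria. Most subunits are encoded in the nucleus, and their promoters are known for binding sites of the nuclear respiratory factors NRF-1 and NRF-2 (an ETS factor, also named GABP), of CREB and of YY1.

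Promoter letters are shown for Atp5h, Ndufa11 and Cox7b, the subunits with the largest differences between the Iso effects of the genotypes, and for Cox6a1. Cox6a1 was the only subunit whose groups did not overlap in the same direction in both Iso and in both genotype comparisons. The 250 bases before the start of transcription come from RefSeq (GRCm38.p6), so that the letters these factors are known to bind can be seen. Of the 79 genes, 63 had a promoter in that table (68 promoters) and 16, among them Cox4i2, had none. Sequences run 5′ to 3′ on the strand of the gene, and capitals mark exact matches on either strand to GCGCATGCG (NRF-1; matches on both strands overlap to give 10 capitals), CCGGAAG (ETS) or TGACGTCA (the cAMP response element, CRE, bound by CREB). Ndufa11 (chr17:56717512-56717761, plus strand) holds a CRE match and, nearer the start site, an NRF-1 match. Atp5h (chr11:115419920-115420169, minus strand) holds an ETS match, and Cox6a1 (chr5:115348959-115349208, minus strand) an NRF-1 match followed by an ETS match. Cox7b (chrX:106015450-106015699, plus strand) holds no match to these letters.
Ndufa11: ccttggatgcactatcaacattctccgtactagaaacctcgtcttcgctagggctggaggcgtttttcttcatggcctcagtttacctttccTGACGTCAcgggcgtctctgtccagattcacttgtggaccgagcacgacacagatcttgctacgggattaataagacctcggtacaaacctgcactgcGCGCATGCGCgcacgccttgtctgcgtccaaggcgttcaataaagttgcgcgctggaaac
Atp5h: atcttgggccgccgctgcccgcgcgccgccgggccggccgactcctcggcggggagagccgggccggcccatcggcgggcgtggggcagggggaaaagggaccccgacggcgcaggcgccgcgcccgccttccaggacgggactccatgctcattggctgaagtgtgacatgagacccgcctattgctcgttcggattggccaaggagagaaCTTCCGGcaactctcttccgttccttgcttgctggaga
Cox7b: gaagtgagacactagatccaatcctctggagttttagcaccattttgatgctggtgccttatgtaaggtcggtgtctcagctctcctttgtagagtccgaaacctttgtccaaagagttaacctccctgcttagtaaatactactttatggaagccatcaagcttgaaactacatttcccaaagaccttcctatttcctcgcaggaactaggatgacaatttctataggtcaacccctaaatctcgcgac
Cox6a1: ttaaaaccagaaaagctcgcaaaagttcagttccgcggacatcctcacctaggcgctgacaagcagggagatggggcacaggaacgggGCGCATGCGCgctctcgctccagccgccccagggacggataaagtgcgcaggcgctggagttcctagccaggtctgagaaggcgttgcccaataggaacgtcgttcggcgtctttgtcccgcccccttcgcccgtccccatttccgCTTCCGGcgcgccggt

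Across the 68 subunit promoters the NRF-1 letters were present in 4 (5.88%, in Atp5k, Cox6a1, Ndufa8 and Ndufa11) against 1.45% of all 32851 promoters of the same length. The ETS letters were present in 11 (16.2%) against 6.91%, and the CRE letters in 4 as well (5.88%, in Ndufa10, Ndufa11, Ndufb2 and Uqcrfs1) against 1.55%. The YY1 letters AAGATGGCG were present in 1, Atp5j (1.47%), against 0.606% of all promoters. Ndufa11 was the member that carried both the NRF-1 and the CRE letters. The subunit promoters were also richer in G and C (56.6 ± 6.66%, SD over 68 promoters, against 53.2 ± 11.6% over all) and held a median of 14 CG pairs against 6, and the shares of matches were not adjusted for that. A match describes the letters and is not a measured binding site.

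Signals are on the log2 scale, on which a difference of 1 is a doubling, and a gene was tested if it lay above its array's median (near 3.31) on at least 3 arrays. This held for 77 of the 79 subunits. Cox7b2 (2.55 to 2.90) and Cox8c (2.63 to 2.88), testis forms of complex IV subunits, lay below the median on all 12 arrays. The tested subunits were bright: 75 lay above the median on every array, 59 had a mean of 9 or more, and 17 came within 1 log2 unit of the highest signal on the arrays, 13.8. Near the top of an array's scale differences can be compressed, and its part in the results was not tested.

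Most subunits were also steady. The SD pooled over the 4 groups had a median of 0.139 over the 77 subunits against 0.207 over the 13737 genes tested. Among the 260 genes with a mean above 11, of which 53 were subunits, the medians were 0.0971 for the subunits and 0.121 for all. The tightest were Ndufa2, an accessory subunit of complex I (pooled SD 0.0233; 12.88 to 12.99 over all arrays), Cox4i1, the common form of COX4 (0.0276), Sdhb, the iron-sulphur subunit of complex II (0.0342), and Cox7a1, the heart and muscle form of COX7A (0.0395). The widest were Sdha, the flavoprotein of complex II (0.571), and Ndufs1, the largest iron-sulphur subunit of complex I (0.466), both through 1 array described next.

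**Figure D1:**
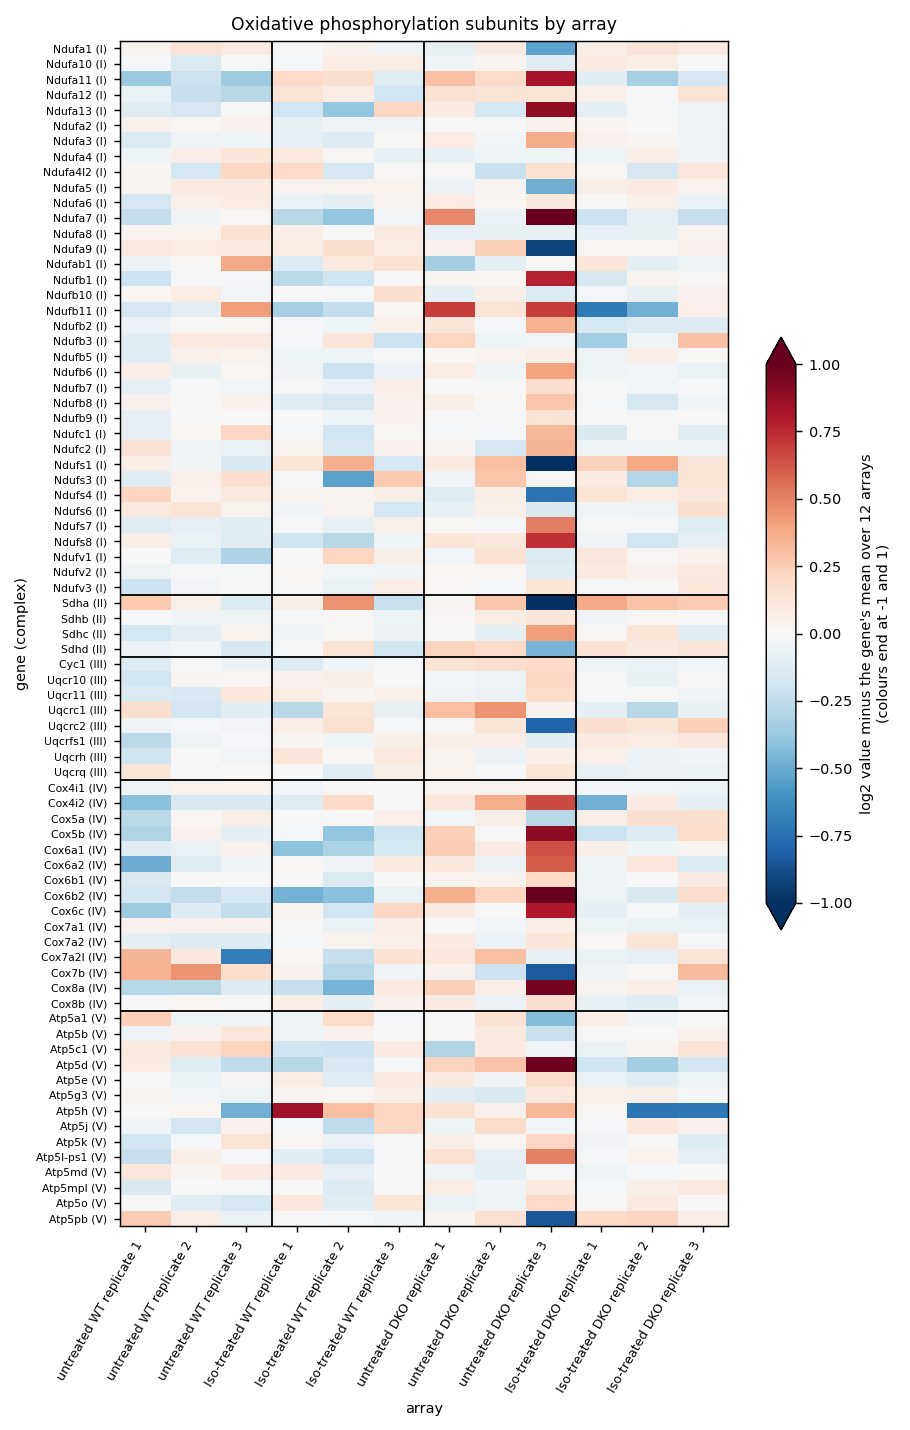
Each row is 1 of the 77 tested subunits, ordered by complex, and each column 1 array; colour gives the log2 signal minus that gene's mean over 12 arrays, with colours ending at -1 and 1. Most cells are near 0, and the column of untreated DKO replicate 3 holds most of the strong colours in both directions.

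Untreated DKO array 3 stood apart before any comparison was made. On it 16 subunits lay over 0.5 above and 10 over 0.5 below their mean on the other 11 arrays, whereas each other array had 0 to 2 in either direction. It was not limited to the subunits, and over all genes tested the shares on that array were 15.5% above and 15.5% below. The subunits furthest below were Sdha (-1.84), Ndufs1 (-1.43), Ndufa9 (-1.01), Atp5pb of the peripheral stalk of ATP synthase (-0.93), Cox7b (-0.90) and Uqcrc2 (-0.87). Furthest above were Ndufa7 (1.16), Cox6b2 (1.10), Atp5d (1.07), Cox8a (1.05), Cox5b (0.97) and Ndufa13 (0.96). Its median correlation with the other arrays over genes was 0.956, against 0.984 to 0.988 for each of them. The mean of 12 endothelial markers was also highest on it, at 7.10, against 6.38 to 6.89 on the others, and its part in the results was not tested. For comparisons that use the untreated DKO group, values without this array are given beside those they move.

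**Figure D2:**
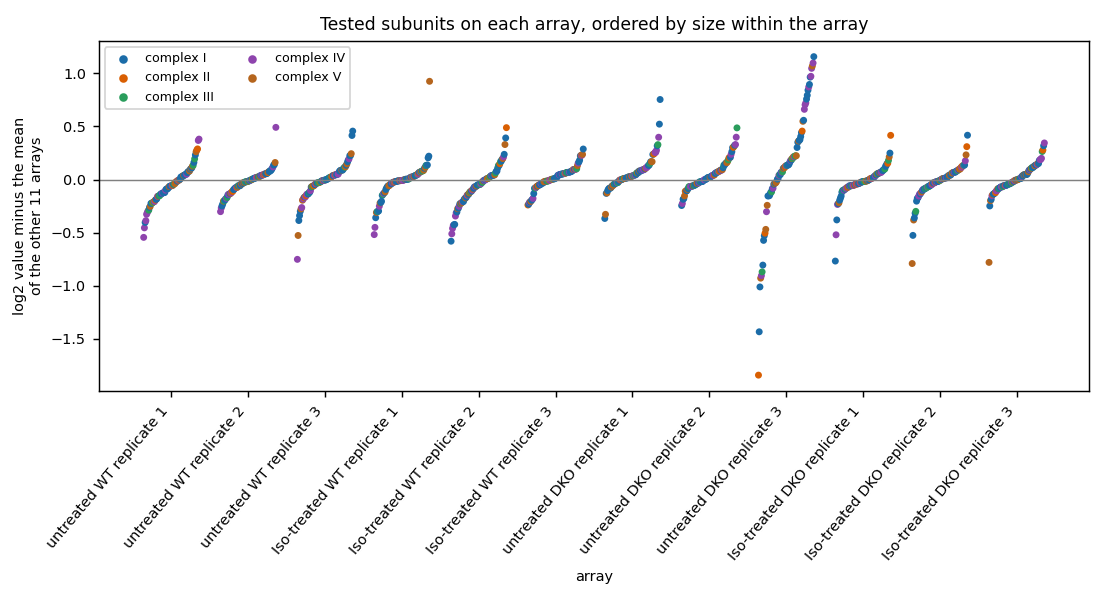
Each point is 1 tested subunit on 1 array, coloured by complex and ordered by size within the array; the vertical axis gives its log2 signal minus its mean on the other 11 arrays. Untreated DKO replicate 3 spans -1.84 to 1.16, while on the other arrays nearly all subunits lie within 0.5 of 0.

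As a check of genotype, Camk2g read 3.57 to 4.20 on the 6 DKO arrays and 4.78 to 5.80 on the 6 WT arrays, so the genotypes did not overlap. Camk2d read 7.36 to 7.98 in DKO and 7.94 to 8.42 in WT and overlapped, and a probe set outside the deleted part of a gene checks nothing. Ventricular markers (12 of 12 above the filter) averaged 11.78 to 11.89 on the untreated and 11.95 to 12.08 on the treated arrays of WT. In DKO they averaged 11.81 to 11.91 and 11.92 to 12.10, so all Iso-treated arrays lay above all untreated ones. The part of this shift in the subunit results was not tested. Endothelial markers (12 of 12 above the filter) averaged 6.38 to 6.65 on the untreated and 6.50 to 6.89 on the treated arrays of WT. In DKO they averaged 6.65 to 7.10 and 6.49 to 6.72. Macrophage and leukocyte markers (10 of 11 above the filter, Ptprc dim) averaged 4.85 to 5.02 and 4.83 to 4.97 in WT and 4.83 to 5.09 and 4.45 to 4.62 in DKO in the same order, so Iso-treated DKO arrays lay below all others. With Iso, 2 of these 10 markers passed as lower in DKO than in WT, Cd74 (-0.94, limma adjusted p = 0.0400) and Cd14 (-0.92, adjusted p = 0.0402), each losing the call in 10 of 22 other settings, among them those without any 1 of the Iso-treated arrays. Their part in the subunit results was not tested. Markers of atrial myocytes (4 of 4 above the filter) averaged 7.23, 7.74 and 6.32 in WT cultures left untreated and 8.56, 8.57 and 6.30 in those given Iso, against 6.25 to 6.81 in DKO. Arrays 1 and 2 of both WT groups thus lay above array 3. Ndufa11 was also lowest on array 3 of the Iso-treated WT arrays (6.19, 6.14 and 5.86). On the untreated WT arrays (5.61, 5.77 and 5.63) it was not. Atp5h was lowest on array 3 in both WT groups (5.99, 6.02 and 5.51 untreated, 6.84, 6.30 and 6.21 with Iso). Cox4i2 was lowest on array 1 in both. The part of these markers in the subunit results was not tested. Of the 4, Nppa passed as lower in DKO without Iso (-1.61, limma adjusted p = 0.00733; lost in 3 of 22 other settings, among them those without untreated WT array 1 or 2) and with Iso (-1.28, adjusted p = 0.0262; lost in 5 of 22, those without Iso-treated WT array 1 or 2 or a single Iso-treated DKO array). In these bulk samples fewer cells of a type and less RNA per cell cannot be told apart.

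In WT cells the subunits as a group lay at a like level with and without Iso, the medians of the complexes differing by -0.03 to 0.09. No subunit passed the test across all genes (limma, adjusted p under 0.05; 0 of 77 with 0.0218% of all genes called), and 2, Atp5h and Ndufa11, were higher and 0 lower at an unadjusted p under 0.05, against 3.46% and 3.24% of all genes. The median log2 difference was 0.00 over the subunits and -0.01 over all genes, with 40 subunits above 0 and 37 below (47.8% of all genes above 0). By complex the medians were -0.03 (I), 0.04 (II), 0.09 (III), 0.00 (IV) and 0.00 (V). For 56 of the 77 subunits the 95% interval of the difference lay within 0.5 of 0, against 49.9% of all genes, and for 76 it lay within 1, against 95.5%. The 3 treated arrays lay above the 3 untreated ones for 7 subunits, or 9.09%, against 7.16% of all genes, and below them for 4, or 5.19%, against 8.42%.

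The subunits with the smallest p in WT were the following. Atp5h, subunit d in the peripheral stalk of ATP synthase, read 5.99, 6.02 and 5.51 without and 6.84, 6.30 and 6.21 with Iso. Its treated arrays all lay above the untreated ones (difference 0.61, SE 0.227, limma adjusted p = 0.625). Ndufa11, an accessory subunit in the membrane arm of complex I, read 5.61, 5.77 and 5.63 without and 6.19, 6.14 and 5.86 with Iso, again with no overlap (0.39, SE 0.164, limma adjusted p = 0.695). Cox7b, a small subunit of complex IV, went the other way. Its values were 8.15, 8.25 and 7.98 without and 7.84, 7.51 and 7.76 with Iso, all treated arrays lying below (-0.42, limma adjusted p = 0.754). Smaller still were the differences of Ndufv1, which binds the flavin that takes up electrons from NADH (0.24), and of Atp5c1, the gamma shaft of ATP synthase (-0.26), whose probe set was near the median at 3.59 to 4.12.

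In DKO cells 49 of the 77 subunits read lower with Iso than without, complex IV most often, but no single difference passed the test over all genes. Again 0 of 77 subunits passed (limma, adjusted p under 0.05; 0.0510% of all genes called), and 11 had an unadjusted p under 0.05, of which 1 was higher and 10 lower with Iso. Over all genes the shares were 9.46% higher and 8.94% lower. The median over the subunits was -0.07 against 0.01 over all genes, with 28 above 0 and 49 below (50.9% of all genes above 0). Without untreated DKO array 3 it was -0.03, no subunit passed and 7 (9.09%) had an unadjusted p under 0.05, against 14.97% of all genes. The 95% interval lay within 0.5 of 0 for 47 subunits (40.3% of all genes) and within 1 for 71 (88.4%).

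All 3 Iso-treated DKO arrays lay below all untreated DKO arrays for 22 of the 77 subunits, or 28.6%, against 10.7% of all genes, and above them for 4, or 5.19%, against 10.8%. Without untreated DKO array 3 the counts were 24 lower (31.2%, against 15.8% of all genes) and 7 higher (9.09%, against 17.1%). The 22 were spread over all complexes: Ndufa7, Ndufa11, Ndufb2, Ndufb7, Ndufb8, Ndufb11 and Ndufs8 of complex I, Sdhb of complex II, Cyc1, Uqcrc1 and Uqcrq of complex III, Cox4i1, Cox4i2, Cox6a1, Cox6b2, Cox6c, Cox7a1 and Cox8a of complex IV, and Atp5d, Atp5e, Atp5h and Atp5k of complex V. Cox4i2 was tested through the untreated DKO arrays, the group in which it was high, so the filter favoured its place among the 22. The 4 above were Ndufa5, Ndufs4, Ndufv2 and Uqcrfs1, the Rieske iron-sulphur protein of complex III. None of these differences passed singly, and subunits of 1 array share its errors, so that the count was not tested.

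By complex, complex IV had the lowest median with Iso in DKO, -0.14, with 13 of its 15 tested subunits below 0 and 7 of 15 without overlap. It was -0.09, with 12 of 15 below 0, without untreated DKO array 3. The medians of complexes I, II, III and V were -0.06, 0.03, -0.06 and 0.01, and -0.01, 0.00, 0.00 and -0.03 without that array. No complex was tested as a set, and the complex IV counts include Cox4i2, which was tested through the untreated DKO arrays.

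**Figure D3:**
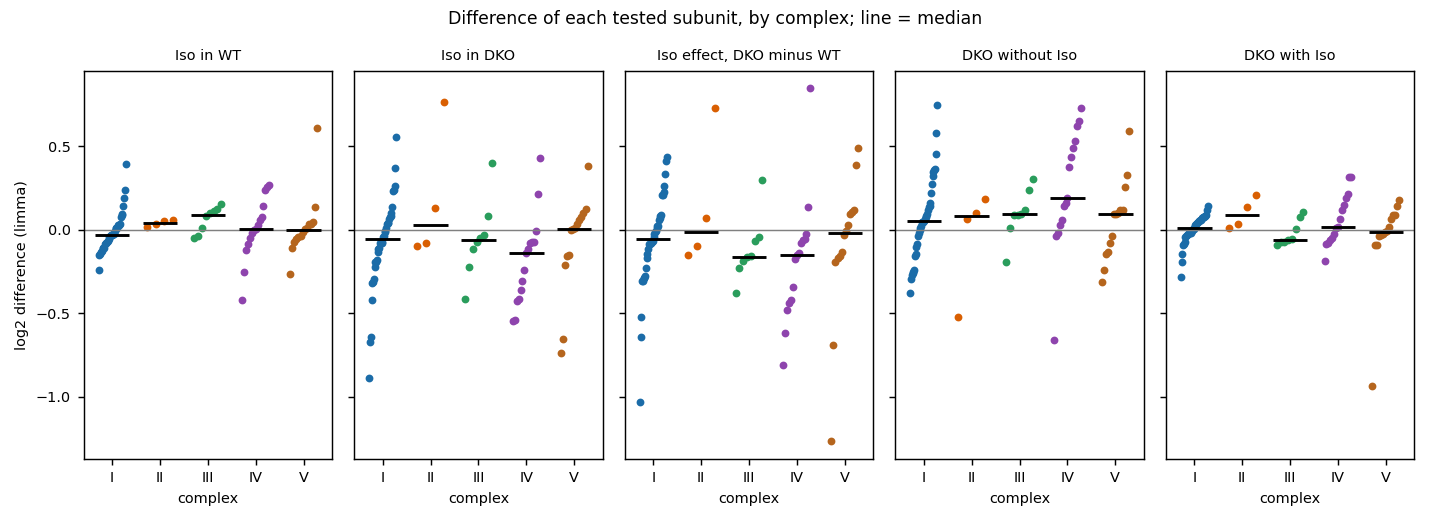
Each point is 1 tested subunit, with its log2 difference on the vertical axis, ordered by size within its complex; the 5 panels are the 5 comparisons and black lines are medians per complex. With Iso in DKO 49 of 77 points lie below 0, and between untreated genotypes 54 of 77 lie above 0; both panels use the untreated DKO arrays.

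Among single subunits, Atp5d, the delta subunit in the rotor of ATP synthase, had the smallest adjusted p in this comparison. Its DKO arrays were at 6.76, 6.83 and 7.52 untreated and at 6.34, 6.19 and 6.36 treated, so all treated arrays lay below the untreated ones and array 3 was the highest. The difference was -0.74 (SE 0.184, limma adjusted p = 0.0883), and -0.50 (adjusted p = 0.118) without that array. Ndufb11, an accessory subunit of the complex I membrane arm, read 7.40, 6.84 and 7.40 without and 6.00, 6.22 and 6.76 with Iso. Its groups did not overlap either, and its difference was -0.88 (SE 0.225, limma adjusted p = 0.0913), or -0.79 (adjusted p = 0.155) without array 3. With untreated DKO array 2 left out, Atp5d and Ndufb11 passed as lower with Iso (limma, -0.84, adjusted p = 0.0415, and -1.07, adjusted p = 0.0334). So did Ndufa11 (-0.76, limma adjusted p = 0.0377) and Ndufa7, which was named after its values were seen (-0.94, adjusted p = 0.0302). In that fit 5.19% of the subunits and 4.40% of all genes passed, and array 3 weighed more in the untreated DKO mean. Ndufa7 read 10.49, 9.96 and 11.08 on the untreated and 9.81, 9.93 and 9.79 on the treated DKO arrays. Without array 3 no subunit passed.

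Uqcrc1, a core subunit of complex III, did not follow array 3. It read 12.25, 12.40 and 11.99 on the untreated and 11.86, 11.68 and 11.88 on the treated DKO arrays, and all treated arrays lay below. Its difference was -0.41 (limma adjusted p = 0.181), and -0.52 (adjusted p = 0.141) without array 3. Sdha showed the opposite. Its untreated DKO values were 11.61, 11.86 and 9.90, its treated ones 11.97, 11.87 and 11.84, and the difference of 0.77 (limma adjusted p = 0.305) rested on the third untreated array, being 0.15 (adjusted p = 0.753) without it. Ndufs4, which complex I needs for its assembly, and Uqcrc2, the other core subunit of complex III, differed by 0.37 (adjusted p = 0.269) and 0.40 (adjusted p = 0.291), or 0.14 and 0.11 without array 3, and both were low on array 3 (-0.81 and -0.87 against the other arrays).

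Whether Iso acted differently in the genotypes was tested as the difference of the effects, DKO minus WT. No subunit passed (limma, adjusted p under 0.05; 0 of 77 with 0.0146% of all genes called), and 6 had an unadjusted p under 0.05, of which 1 lay above 0 and 5 below, against 5.48% and 4.62% of all genes. The median over the subunits was -0.08 against 0.01 over all genes, with 25 of 77 above 0 and 52 below (50.8% of all genes above 0), and -0.04 without untreated DKO array 3. By complex it was -0.05 for I, -0.01 for II, -0.16 for III (7 of 8 below 0), -0.15 for IV (13 of 15 below 0) and -0.02 for V. Without array 3 complexes I, II and V had -0.02, -0.03 and -0.03, complex III had -0.09 (7 of 8 below 0) and complex IV -0.09 (11 of 15 below 0). The complex IV counts again include Cox4i2. This test is the least precise: the interval lay within 0.5 of 0 for 28 subunits (12.8% of all genes) and within 1 for 64 (75.1%).

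For Ndufa11, Atp5h and Cox4i2 the effect had opposite signs in the genotypes in every mouse. Ndufa11 differed between the Iso-treated and untreated array of a mouse by 0.57, 0.37 and 0.23 in WT and by -0.40, -0.52 and -0.99 in DKO. Its DKO arrays read 6.28, 6.18 and 6.81 without and 5.88, 5.65 and 5.81 with Iso, so that the untreated DKO values lay above all untreated WT values (5.61 to 5.77) and the treated ones overlapped them. The difference of effects was -1.03 (SE 0.232, limma adjusted p = 0.251), and -0.84 (adjusted p = 0.168) without untreated DKO array 3. Atp5h differed within mice by 0.85, 0.28 and 0.70 in WT and by -0.15, -0.76 and -1.05 in DKO. Its DKO arrays read 6.15, 6.03 and 6.33 without and 6.00, 5.27 and 5.28 with Iso, and its difference of effects was -1.26 (limma adjusted p = 0.316), or -1.19 (adjusted p = 0.273) without array 3.

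Cox4i2, the form of COX4 known from lung and from low oxygen, differed within mice by 0.30, 0.36 and 0.15 in WT and by -0.59, -0.28 and -0.76 in DKO. Its signal was near the array median. WT arrays read 2.86, 3.12 and 3.13 without and 3.16, 3.48 and 3.28 with Iso. DKO arrays read 3.39, 3.65 and 3.94 without and 2.80, 3.36 and 3.19 with it. The untreated DKO arrays were the highest group and did not overlap the untreated WT or the treated DKO arrays. The difference of effects was -0.81 (limma adjusted p = 0.383), or -0.67 (adjusted p = 0.367) without array 3. Cox4i2 was above the array median on 5 arrays, 3 of them untreated DKO, and so was tested through the group in which it was high. Together these 3 subunits are 3.90% of those tested, against 1.97% of all genes up in every WT mouse and down in every DKO mouse. The reverse pattern was met by 1 subunit, Ndufa1 (1.30%, against 2.80%). Above 0, the smallest p was that of Cox7b (0.85, limma adjusted p = 0.394; 0.60, adjusted p = 0.367, without array 3), with DKO values of 7.84, 7.59 and 6.97 without and 7.76, 7.81 and 8.12 with Iso.

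**Figure D4:**
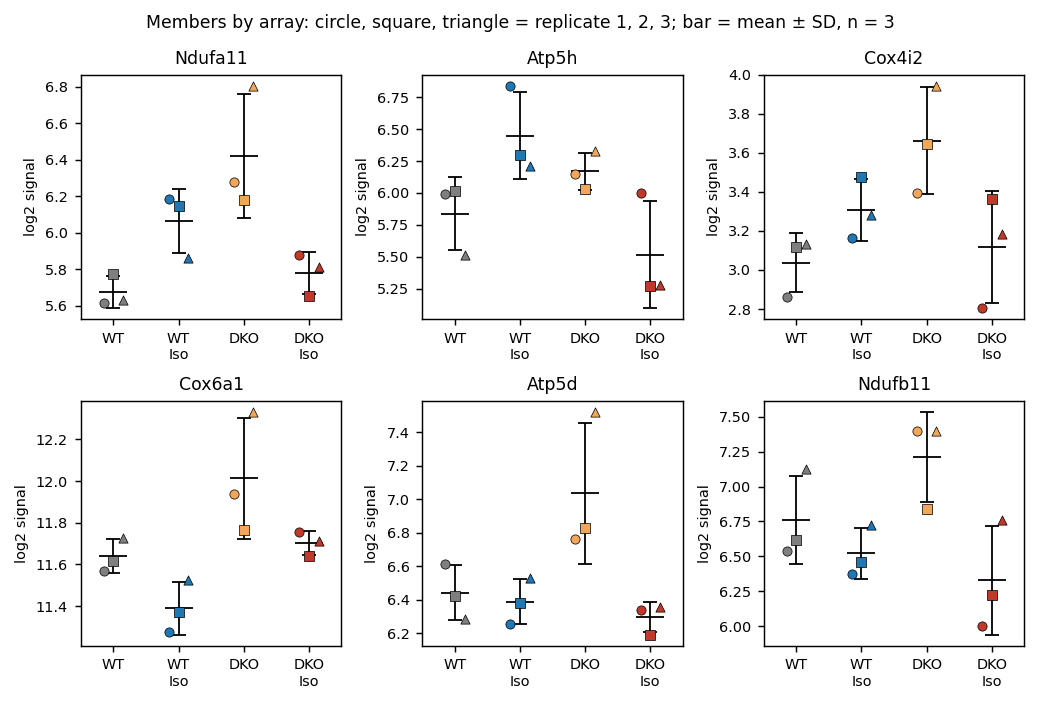
Log2 signal of 6 subunits on each array (circle, square and triangle for replicates 1, 2 and 3) in the 4 groups, with mean and SD (n = 3); each panel has its own vertical scale, not starting at 0. Ndufa11, Atp5h and Cox4i2 lie higher with Iso in WT and lower with it in DKO; in Ndufa11, Cox4i2, Cox6a1 and Atp5d the triangle of untreated DKO is the highest point of all.

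The genotypes were next compared without Iso, DKO against WT. This comparison shares the untreated DKO arrays with that of Iso in DKO, so that a high or low value on them enters both with opposite sign. No subunit passed (limma, adjusted p under 0.05; 0 of 77 with 0.204% of all genes called), and 15 had an unadjusted p under 0.05, of which 13 were higher and 2 lower in DKO. Over all genes the shares were 6.36% higher and 7.45% lower. Without untreated DKO array 3 the count was 9 (11.7%), against 12.4% of all genes. The median was 0.09 over the subunits and -0.01 over all genes, with 54 of 77 above 0 (48.1% of all genes), and 0.06 with 59 of 77 above 0 without that array. The interval lay within 0.5 of 0 for 46 subunits (43.0% of all genes) and within 1 for 70 (91.3%).

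All untreated DKO arrays lay above all untreated WT arrays for 18 subunits, or 23.4%, against 7.84% of all genes, and below them for 4, or 5.19%, against 9.21%. Without array 3 the counts were 24 (31.2%, against 13.7% of all genes) and 8 (10.4%, against 16.4%). The 18 were Ndufa3, Ndufa11, Ndufa12, Ndufb1, Ndufb7, Ndufs7 and Ndufs8, Sdhb, Cyc1, the complex IV genes Cox4i2, Cox6a1, Cox6b1, Cox6b2, Cox6c, Cox7a2 and Cox8a, and Atp5d and Atp5h. Complex IV had the highest median, 0.19, with 12 of 15 above 0, and 0.21 with 13 of 15 above 0 without array 3. Cox4i2, tested through the untreated DKO arrays in which it was high, is counted in the 18 and in these 15. Complexes I, II, III and V had 0.05, 0.08, 0.09 and 0.10, and 0.05, 0.09, 0.08 and 0.05 without array 3.

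Ndufa11 had the smallest adjusted p in this comparison, with a difference of 0.75 (limma adjusted p = 0.106), or 0.55 (adjusted p = 0.110) without array 3. Cox6b2, the testis form of COX6B, read 6.51, 6.45 and 6.53 in WT and 7.06, 6.91 and 7.70 in DKO without Iso. The groups did not overlap, and the difference was 0.73 (limma adjusted p = 0.156), or 0.49 (adjusted p = 0.191) without array 3. Cox8a, the form of COX8 found in most tissues, read 7.55, 7.56 and 7.71 in WT and 8.07, 7.91 and 8.80 in DKO (0.65, limma adjusted p = 0.205; 0.38, adjusted p = 0.328, without array 3). With untreated DKO array 2 left out, the level passed as higher in DKO for Ndufa11 (0.87, limma adjusted p = 0.0391), Cox6b2 (0.89, adjusted p = 0.0492) and Ndufa7 (0.86, adjusted p = 0.0472). In that fit 3.90% of the subunits and 1.31% of all genes passed, and array 3 weighed more in the untreated DKO mean. On array 3 these genes lay 0.90, 1.10 and 1.16 above their means on the other arrays, in the same order. Without array 3 no subunit passed.

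Cyc1, cytochrome c1 of complex III, showed a small difference with little spread. It read 12.12, 12.24 and 12.19 in untreated WT and 12.39, 12.42 and 12.45 in untreated DKO, with array 3 close to the others of its group (0.24, limma adjusted p = 0.330; 0.22 without it). With Iso the genotypes read 12.12, 12.23 and 12.24 in WT and 12.20, 12.18 and 12.23 in DKO, and overlapped. Of the subunits lower in DKO, Cox7b had the smallest p (-0.66, limma adjusted p = 0.202; -0.41, adjusted p = 0.297, without array 3), followed by Ndufs4 (-0.38, adjusted p = 0.350) and Ndufa5, an accessory subunit of the matrix arm of complex I (-0.24, adjusted p = 0.430). The last 2 were both low on array 3 (-0.81 and -0.53 against the other arrays), and differed by -0.14 and -0.09 without it.

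With Iso, DKO and WT were closest. No subunit passed (limma, adjusted p under 0.05; 0 of 77 with 0.306% of all genes called), and at an unadjusted p under 0.05 Cox6a1 was higher and Atp5h lower, 1 of 77 each, against 3.73% and 4.18% of all genes. The median was 0.01 over the subunits and 0.00 over all genes, with 43 above 0 and 34 below (50.9% of all genes above 0), and the medians by complex were 0.01, 0.09, -0.06, 0.01 and -0.01 from I to V. The interval lay within 0.5 of 0 for 59 subunits (48.6% of all genes) and within 1 for 75 (94.6%). DKO lay wholly above WT for 7 (9.09%, against 9.03% of all genes) and below for 4 (5.19%, against 8.56%). Atp5h stood furthest from 0, with WT at 6.84, 6.30 and 6.21 and DKO at 6.00, 5.27 and 5.28, all DKO arrays below all WT arrays (-0.93, SE 0.227, limma adjusted p = 0.157). The untreated DKO arrays enter this value only through the shared estimate of spread, and without array 3 its adjusted p was 0.0712.

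Cox6a1, the form of COX6A found in most tissues, was the only subunit whose groups did not overlap in the same direction in both Iso comparisons and in both genotype comparisons. In WT it read 11.57, 11.62 and 11.73 untreated and 11.27, 11.37 and 11.52 with Iso. In DKO it read 11.94, 11.77 and 12.33 untreated and 11.76, 11.64 and 11.71 with Iso. It was thus lower with Iso in each genotype (-0.25 in WT, limma adjusted p = 0.822; -0.31 in DKO, adjusted p = 0.279, or -0.15 without untreated DKO array 3). It was higher in DKO without Iso (0.37, limma adjusted p = 0.288, or 0.21 without array 3) and with it (0.31, adjusted p = 0.631). Its heart and muscle counterpart Cox6a2 read 10.92, 11.30 and 11.38, then 11.43, 11.38 and 11.50, in WT without and with Iso, and 11.52, 11.36 and 12.02, then 11.38, 11.52 and 11.28, in DKO. The Cox6a2 groups overlapped in all 4 comparisons.

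The other form pairs of complex IV varied in the size of their differences. Cox4i1 stayed between 13.58 and 13.67 on all 12 arrays and Cox7a1 between 13.21 and 13.34, against 12.52 to 12.77 for Cox7a2, the form of COX7A found in most tissues, each on its own probe set. Cox8b, the heart and muscle form of COX8, differed with Iso by 0.00 in WT and -0.14 in DKO, and between genotypes by 0.06 without Iso and -0.08 with it. In the same order Cox8a differed by 0.03, -0.41, 0.65 and 0.21. Without untreated DKO array 3 the second and the third of these were -0.09 and 0.01 for Cox8b and -0.14 and 0.38 for Cox8a. Both Cox4i1 and Cox7a1 lay within 1 log2 unit of the top of the scale.

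Subunits that carry out catalysis showed no common direction. Ndufv1, Ndufv2, Ndufs1, Ndufs3, Ndufs7 and Ndufs8, which hold the flavin and most iron-sulphur clusters of complex I or lie beside them, differed with Iso in DKO by 0.07, 0.10, 0.55, -0.11, -0.22 and -0.42. The same differences were 0.00, 0.05, 0.05, -0.14, -0.05 and -0.21 without untreated DKO array 3. Ndufs1 was at 8.47 on untreated DKO array 3 and between 9.62 and 10.2 on all others. Of complex II, Sdhb read 12.92 on average in untreated WT and 13.02 in untreated DKO without overlap, a difference of 0.10 (limma adjusted p = 0.681), or 0.08 without array 3. The membrane anchors Sdhc and Sdhd differed by 0.19 and 0.07, and by 0.03 and 0.29 without that array. The catalytic beta subunit of ATP synthase, Atp5b, and its alpha partner Atp5a1 differed by -0.08 and -0.15 between untreated genotypes and by 0.06 and 0.10 with Iso in DKO. All 4 signs turned without array 3, to 0.01 and 0.02 and to -0.03 and -0.06. The c-ring gene Atp5g3 differed by -0.04 and 0.08 in these comparisons, and by -0.11 and 0.16 without array 3.

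Other genes of the pathway were read from lists of its assembly factors, regulators, carriers and fuel supply. Of 51 assembly factors tested, 1 fell with Iso in DKO (limma, adjusted p under 0.05), where 0.0510% of all genes were called. None rose there, and none passed in the other 4 comparisons. At an unadjusted p under 0.05 were 18 of them for Iso in DKO, 12 without untreated DKO array 3, against 6 for Iso in WT, 11 for the difference of effects, 10 between genotypes without Iso and 7 with it. Over all genes the shares for Iso in DKO were 9.46% higher and 8.94% lower, and 14.97% in either direction without that array. For Iso in WT they were 3.46% higher and 3.24% lower, and for the difference of effects 5.48% and 4.62%. Between genotypes they were 6.36% and 7.45% without Iso and 3.73% and 4.18% with it. The assembly factor that fell was Sco2, which helps to load copper into complex IV. Sco2 read 9.84, 9.58 and 10.23 without and 8.71, 8.23 and 8.70 with Iso in DKO, and all treated arrays lay below (-1.34, SE 0.191, limma adjusted p = 0.0275). The call was lost in 8 of 23 other settings, namely when the fit held no WT arrays and when untreated DKO array 1, a single Iso-treated DKO array or a single untreated WT array was left out (highest adjusted p = 0.260). In WT, Sco2 was at 9.45, 9.33 and 9.59 untreated and at 8.68, 8.86 and 9.15 with Iso, and the groups did not overlap there either.

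Of 16 transcriptional regulators of mitochondrial genes and 16 carriers and shuttles, none passed in any comparison (limma). Unadjusted counts follow for Iso in WT, Iso in DKO, the difference of effects, DKO without Iso and DKO with Iso. At an unadjusted p under 0.05 were 4, 4, 3, 2 and 1 regulators and 2, 1, 2, 1 and 0 carriers. Over all genes the shares, higher and lower, were 3.46% and 3.24%, 9.46% and 8.94%, 5.48% and 4.62%, 6.36% and 7.45%, and 3.73% and 4.18%. The regulator with the smallest p was Nrip1, a corepressor of oxidative genes, with Iso in DKO (0.56, limma adjusted p = 0.0727). Of 22 genes of the citric acid cycle and pyruvate dehydrogenase none passed either. In the same order of comparisons 2, 5, 1, 2 and 3 of them had an unadjusted p under 0.05. With Iso in DKO 20 of the 22 lay above 0, with a median of 0.24, where 28 of the 77 subunits and 50.9% of all genes lay above 0. Without untreated DKO array 3 the count was 17 of 22 with a median of 0.13, against 31 of 77 subunits and 7064 of 13737 genes. In that fit 1 gene, Pdhx of the pyruvate dehydrogenase complex, passed as higher in DKO with Iso (0.50, with limma adjusted p = 0.317 on all arrays). Over all genes 67 then passed as higher and 96 as lower in that comparison, against 42 in either direction on all arrays. Pdk4, a kinase that switches off pyruvate dehydrogenase, had the smallest p of this list in both Iso comparisons (0.40 in WT, limma adjusted p = 0.460; 0.44 in DKO, adjusted p = 0.0962).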

How the data were processed

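RNA of 12 myocyte cultures was labelled as biotinylated cRNA and hybridised to 1 Affymetrix array each, per the labels' protocols. The deposited values are log2 signals that the authors summarised with RMA, per the submitters' processing notes. The version of RMA, the type of array and its annotation build were not stated there, and probe sets were named from GEO's platform annotation. Of 25428 probe sets 24705 carried 1 symbol, giving 24704 genes; 13737 above the array median on at least 3 arrays were tested and 10967 set aside as dim. limma 3.58.1 (R 4.3.3) fitted 4 group means over 12 arrays, with 5 contrasts and Benjamini-Hochberg adjustment over the 13737 genes; 0.05 was the limit for an adjusted p to pass. SEs and 95% intervals are limma's; the number of arrays limits the precision.

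The labels give the untreated and treated array of a mouse the same number, so they are paired by animal. Their deviations from the group means correlated at 0.00733, 0.0864 and 0.130 in DKO and -0.0623, 0.0566 and 0.0109 in WT across genes. Named were, in each comparison, the 3 subunits with the smallest p on each side of 0, a fixed set of core subunits and form pairs, subunits without overlap in both comparisons of a factor, and the leader of each pathway list. The members and lists were chosen with earlier results of these data known. Alternatives covered the filter, centring and scaling, array weights, the mouse as a block, and each array left out. Raw array files were not used here.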

Additional observations from a re-analysis of the deposited data

Results flagged for a closer look

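For Atp5h, Cox4i2 and Ndufa11 every WT mouse had a higher signal with Iso and every DKO mouse a lower one. The Iso effect in DKO minus that in WT was -1.26 for Atp5h, -0.81 for Cox4i2 and -1.03 for Ndufa11 on the log2 scale. The difference was tested in limma and did not pass for any of them (adjusted p = 0.316, 0.383 and 0.251). The pattern was met by 3.90% of the tested subunits and 1.97% of all genes tested, and the reverse pattern by 1.30% and 2.80%. Cox4i2 was near the array median and entered the test through the untreated DKO arrays, the group in which it was high.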

How the results depend on the processing

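No subunit passed in limma's test of any comparison, and this held with the mouse as a replicate block (0 called in each comparison so fitted) and in every other of the 23 settings except array weights and the one without untreated DKO array 2. With array weights, untreated DKO arrays 1, 2 and 3 had weights of 2.61, 0.504 and 0.156. Array 3 thus had the lowest weight of all, and the untreated DKO mean rested mostly on array 1. In that fit 5 subunits fell with Iso in DKO (Atp5d, Ndufa7, Ndufa11, Ndufb11 and Uqcrc1). In DKO without Iso 4 were higher (Cox6b2, Cox8a, Ndufa7 and Ndufa11), and 1 passed for the difference of effects (Ndufa11, -0.90, limma adjusted p = 0.0427). With 1 array left out, the counts ranged from 0 to 4 for Iso in DKO and from 0 to 3 for DKO without Iso, the highest being without untreated DKO array 2. With array weights 8.07%, 5.08% and 0.371% of all genes passed in these comparisons, against 6.49%, 5.19% and 1.30% of the subunits. Without untreated DKO array 2 it was 4.40% and 1.31%, against 5.19% and 3.90%. The cause was not tested.

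The median over the subunits for Iso in DKO was -0.0374 with array weights, -0.0257 without 2 arrays (untreated DKO 3 and Iso-treated WT 3), and -0.0860 (without untreated DKO array 2) to -0.0257 (without untreated DKO array 3) with 1 array left out. For the difference of effects it was -0.0112 without those 2 arrays and -0.122 to -0.0431 with 1 left out (Iso-treated WT array 2 and untreated DKO array 3). For DKO without Iso it was 0.0537 (without untreated WT array 1) to 0.103. The added alternatives, chosen after seeing the data, left out the pseudogene and, for the counts without overlap, untreated DKO array 3. No called value reversed. Of the values of 41 named genes in all settings, 4418 kept their direction and side of the threshold, 13 passed newly and 161, not called, changed sign. With 3 arrays per group the interval of the difference of effects lay within 0.5 of 0 for 28 of 77 subunits.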
